A study of Mus musculus with 36 samples.

Results

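Ribosome footprinting counts short RNA fragments that a ribosome shields from a nuclease, so the reads of a gene normally follow its mRNA level and how densely ribosomes load that mRNA. The fragments of an actively translated mRNA lie in its coding sequence, and most of the RNA in such a preparation is ribosomal RNA that is depleted and filtered away before genes are counted. This description follows 10 genes that were listed by name because they held unusually large shares of the ribosome-protected fragments (RPFs): Cdk8, Cmss1, Filip1l, Kif13a, Rbm24, Itga9, Mroh6, Fam83h, Sall4 and Hmx1. They are 10 of the 16614 genes in the count table, and all 10 were found by symbol. The list was made from these footprint counts, so the height of the footprint shares and their distance from the whole-brain RNA-seq are given here as descriptions without a test. The working name of the list calls the reads stray. Counts per gene carry no read positions, so that name could not be checked for most of these reads, and the genes are called the 10 listed genes.

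The samples came from brains of mice 5 days old, with 10 brains pooled for each preparation, so no value belongs to a single animal. WT mice were of the C57BL/6 strain, and FMR1 KO mice lack Fmr1, which encodes the RNA-binding protein FMRP, in all tissues. RPFs were made from the pellet of a sucrose gradient (RNA granules, "Granule" in the labels) and from fraction 5/6 (ribosome clusters, "Polysome" in the labels), and RNA-seq was made from whole-brain starting material. Each was made in a preparation with 10 mM MgCl2 and strong nuclease digestion scaled to the ribosome content (labelled "M-protocol", called standard here) and in a preparation with 2.5 mM MgCl2 and milder digestion in the cold (labelled "control", called low nuclease). Monosomes were recovered by pelleting in the standard preparation and from gradient fractions in the low nuclease preparation, so magnesium, nuclease, temperature and recovery cannot be told apart. With 3 libraries for each of 12 combinations there were 36 libraries, 24 of footprints and 12 of RNA-seq. The labels number these libraries as replicates, and the study describes its pellet samples as separate preparations. The 3 footprint libraries of a condition were pooled after linker ligation, and the p-values measure the spread between libraries.

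Total counts ran from 6765065 to 40174168 in the standard footprint libraries, from 23634940 to 62310787 in the low nuclease footprint libraries and from 41586791 to 147216378 in RNA-seq. Markers of neurons, astrocytes and the oligodendrocyte lineage had counts in every group, as brain tissue should. Fmr1 was far lower in FMR1 KO than in WT in most libraries, but the library labelled WT fraction 5/6 replicate 3 of the standard preparation had 3.61 CPM (its count scaled to a library size of 1e+06 without the 10 genes), against 114 and 79.0 CPM in its companions and 8.04 to 11.7 CPM in FMR1 KO fraction 5/6. The fraction and genotype comparisons that use that library are also given without it where that moved a value or a call. Of the low nuclease RNA-seq libraries, 3 (FMR1 KO replicates 2 and 3 and WT replicate 2) stood apart from all the others, as described with the RNA values.

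The 10 genes together held 42.0% to 68.8% of the counts of the 12 standard footprint libraries (58.1% ± 7.32, SD, n = 12). In the 12 low nuclease footprint libraries they held 4.09% to 9.13% (6.25% ± 1.35, SD, n = 12). In the 6 standard RNA-seq libraries the sum was 0.0173% to 0.0726% (0.0299% ± 0.0218, SD, n = 6). No standard footprint library reached down to any low nuclease footprint library, and none of these reached the standard RNA-seq. After the 10 genes were taken away, 3922696 to 17417892 counts remained in the standard footprint libraries and 22062619 to 59188995 in the low nuclease ones, which is the depth left for every other gene.

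**Figure D1:**
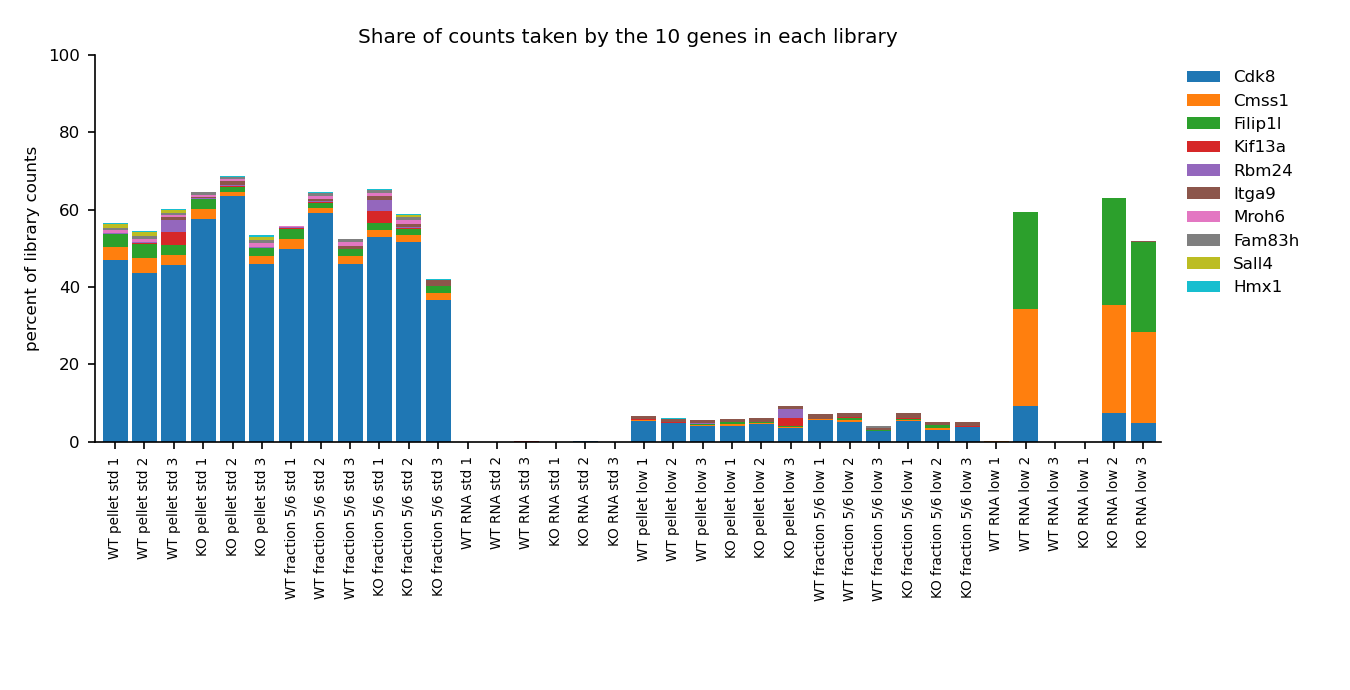
Stacked bars of the percent of each library's counts that fell in each of the 10 listed genes (linear axis from 0 to 100), 1 bar for each of the 36 libraries, standard (std) at the left and low nuclease (low) at the right, without error bars since a bar is a single library. Standard footprints lie between 42.0% and 68.8%, low nuclease footprints between 4.09% and 9.13%, and 3 of the 6 low nuclease RNA-seq libraries reach 51.8% to 63.1%, while the bars of the other RNA-seq libraries are too low to see.

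Cdk8 dominated the sum. It encodes the cyclin-dependent kinase of the Mediator kinase module, which regulates transcription by RNA polymerase II, and it lies on the plus strand of chromosome 5 (chr5:146231230-146302874, GRCm38, ENSMUSG00000029635), where annotated exons cover 13.7% of the gene's span. Its share of library counts was 47.0%, 43.7% and 45.6% in WT pellets and 57.5%, 63.4% and 46.0% in FMR1 KO pellets. In WT fraction 5/6 it was 50.0%, 59.2% and 46.0%, and in FMR1 KO fraction 5/6 52.9%, 51.6% and 36.7%. The standard groups therefore overlapped, with the lowest and highest of the 12 libraries both in FMR1 KO. With low nuclease the shares were 5.31%, 4.69% and 4.00% in WT pellets, 4.03%, 4.67% and 3.55% in FMR1 KO pellets, 5.62%, 5.02% and 2.69% in WT fraction 5/6 and 5.20%, 3.10% and 3.67% in FMR1 KO fraction 5/6. Each standard library stood above each low nuclease library, and the mean shares were 50.0% ± 7.45 and 4.30% ± 0.932 (SD, n = 12 each), a ratio of 11.6.

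In standard whole-brain RNA-seq, Cdk8 took 0.00811%, 0.00564% and 0.00903% of the counts in WT and 0.00596%, 0.0338% and 0.00492% in FMR1 KO. FMR1 KO replicate 2 was the high library of this set. The mean RNA share was 0.0112%, and the standard footprint share was 4442 times as large. Without that library the RNA mean was 0.00673% and the ratio 7422. Cdk8 had the largest share of any gene in 23 of the 24 footprint libraries. The exception was the low nuclease FMR1 KO fraction 5/6 replicate 3. Spread evenly over the 71645 bases of its span, the standard footprint counts of Cdk8 would be 34.6 to 304 counts per base, against 0.0901 to 0.578 in the standard RNA-seq. The authors had marked duplicates and removed them, with settings not given in the sources used here, so the counts cannot be read as numbers of independent molecules.

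Cmss1 and Filip1l followed. Cmss1 encodes a protein named for its homology to a yeast factor of the small ribosomal subunit, and Filip1l encodes a relative of filamin A interacting protein. Filip1l (chr16:57353093-57573126, plus strand, ENSMUSG00000043336) lies wholly inside the span of Cmss1 (chr16:57302000-57606864, minus strand, ENSMUSG00000022748). Exons cover 0.655% of the Cmss1 span and 2.42% of the Filip1l span. Cmss1 had 3.32%, 3.73% and 2.67% of counts in the WT pellet and 2.60%, 1.24% and 2.01% in the FMR1 KO pellet. It had 2.52%, 1.29% and 1.95% in WT fraction 5/6 and 1.87%, 1.73% and 1.83% in FMR1 KO fraction 5/6. Each WT pellet library was above each of the other 9 standard footprint libraries. The mean was 2.23% ± 0.761 (SD, n = 12), against 0.277% in the low nuclease footprints and 0.00505% in standard RNA-seq, ratios of 8.05 and 442. FMR1 KO replicate 2 was the high RNA-seq library here too, and without it the RNA mean was 0.00297% and the ratio 751.

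Kif13a and Rbm24 had the largest coefficients of variation of the 10 genes in the standard footprints (180% and 181%). Kif13a encodes a kinesin motor that carries endosomal cargo, and Rbm24 an RNA-binding protein best known for splicing control in muscle. Kif13a (chr13:46749087-46929867, minus strand, ENSMUSG00000021375) took 0.135%, 0.211% and 3.23% in the WT pellet and 0.110%, 0.253% and 0.148% in the FMR1 KO pellet. In fraction 5/6 it took 0.249%, 0.222% and 0.00107% in WT and 3.04%, 0.182% and 0.00103% in FMR1 KO. So 2 of the 12 standard libraries were near 3%, 8 were between 0.1% and 0.3%, and 2 were below every standard RNA-seq library, where the mean share was 0.00687%. A like spread was present in the low nuclease footprints, where FMR1 KO pellet replicate 3 had 2.22%, 9 libraries lay between 0.0618% and 0.116%, and FMR1 KO pellet replicate 1 and WT fraction 5/6 replicate 1 had 0.00263% and 0.00271%. These levels did not follow genotype or fraction.

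Rbm24 (chr13:46418434-46431095, plus strand, ENSMUSG00000038132) had the same library pattern, with a mean of 0.643% in the standard footprints, 0.246% in the low nuclease footprints and 0.00192% in standard RNA-seq. The low nuclease mean rests on FMR1 KO pellet replicate 3, without which it was 0.0674% (0.0718% for Kif13a), and without WT pellet replicate 3 the standard mean was 0.409% (0.414% for Kif13a). Its highest standard share was 9652 times its lowest, and for Kif13a this ratio was 3121. It was larger for Sall4 (63961) and also high for Fam83h (7337), each with libraries of very few counts. The median over the 11294 genes with at least 10 counts in all 12 standard libraries was 4.39, and Cdk8 had 1.73.

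Itga9, the gene of an integrin alpha subunit, was the only listed gene with a lower mean share in the standard than in the low nuclease footprints. This holds for shares of all counts, and the fold changes scaled by TMM given with the preparations were positive with all libraries. It lies on chr9:118606690-118901003 (plus strand, ENSMUSG00000039115). In the pellet its standard shares were 0.0834%, 0.0786% and 0.703% in WT and 0.351%, 1.00% and 0.169% in FMR1 KO. Fraction 5/6 had 0.175%, 0.588% and 0.862% in WT and 0.830%, 0.874% and 1.40% in FMR1 KO. The standard mean was 0.593% ± 0.424 (SD, n = 12) and the low nuclease mean was 0.843% ± 0.191 (SD, n = 12), a ratio of 0.704. The low nuclease libraries of Itga9 were much closer together, with the highest 2.3 times the lowest, against 17.8 times in the standard preparation. In standard RNA-seq the share was 0.000352%.

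Mroh6, a gene of the maestro heat-like repeat family, and Fam83h, whose protein binds casein kinase 1 and is needed for tooth enamel, were high almost only in the standard preparation. Mroh6 (chr15:75884137-75888770, minus strand, ENSMUSG00000098678) took 0.671%, 0.818% and 0.571% in the WT pellet and 0.623%, 0.579% and 0.856% in the FMR1 KO pellet. In fraction 5/6 it took 0.00242%, 0.708% and 0.807% in WT and 0.882%, 0.951% and 0.0923% in FMR1 KO. Of the 12 libraries, 10 were between 0.5% and 1%, and the 2 low ones were WT replicate 1 and FMR1 KO replicate 3 of fraction 5/6. In the low nuclease footprints the mean was 0.00054%, and in the 6 standard RNA-seq libraries together Mroh6 had 24 counts (95% Poisson interval 15.4 to 35.7, for counting error only).

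Fam83h (chr15:76001093-76014336, minus strand, ENSMUSG00000046761) differed from Mroh6 by at most 1777 counts in each standard footprint library. WT fraction 5/6 replicate 1 had 805 counts of Mroh6 and 43 of Fam83h. With low nuclease Fam83h was between 25 and 1209 counts, except in WT fraction 5/6 replicate 3, where it had 229310 counts (0.505%) and Mroh6 had 17. The mean share of Fam83h in the low nuclease footprints, 0.0427%, thus rests on 1 library.

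Sall4, the gene of a zinc finger transcription factor of pluripotent cells, was either high or nearly absent. On chr2:168748332-168767943 (minus strand, ENSMUSG00000027547) it had 364547, 205262 and 122703 counts in WT pellets (0.907%, 0.945% and 0.560%). FMR1 KO pellets had 6, 7 and 175799 counts, in WT fraction 5/6 it had 7, 5 and 8 counts, and in FMR1 KO fraction 5/6 it had 7, 108339 and 1 counts. No standard library lay between these levels. Of the low nuclease footprint libraries 10 had 3 to 26 counts, and WT pellet replicate 3 and FMR1 KO fraction 5/6 replicate 2 had 1250 and 2147. The 6 standard RNA-seq libraries had 206 counts in all.

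Hmx1, a homeobox gene of cranial sensory neurons and the developing ear and eye (chr5:35389108-35399730, plus strand, ENSMUSG00000067438), varied by a factor of 4.19 between the lowest and the highest standard footprint library and of 4.10 in the low nuclease footprints. It took 0.354%, 0.325% and 0.259% in the WT pellet and 0.144%, 0.238% and 0.408% in the FMR1 KO pellet. In fraction 5/6 it took 0.243%, 0.350% and 0.216% in WT and 0.193%, 0.337% and 0.0974% in FMR1 KO. The mean was 0.264% ± 0.0934 (SD, n = 12) in the standard footprints and 0.0219% ± 0.0075 (SD, n = 12) in the low nuclease footprints, a ratio of 12.1 beside the 11.6 of Cdk8. Only 14 counts of Hmx1 were found in the 6 standard RNA-seq libraries (95% Poisson interval 7.65 to 23.5).

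**Figure D2:**
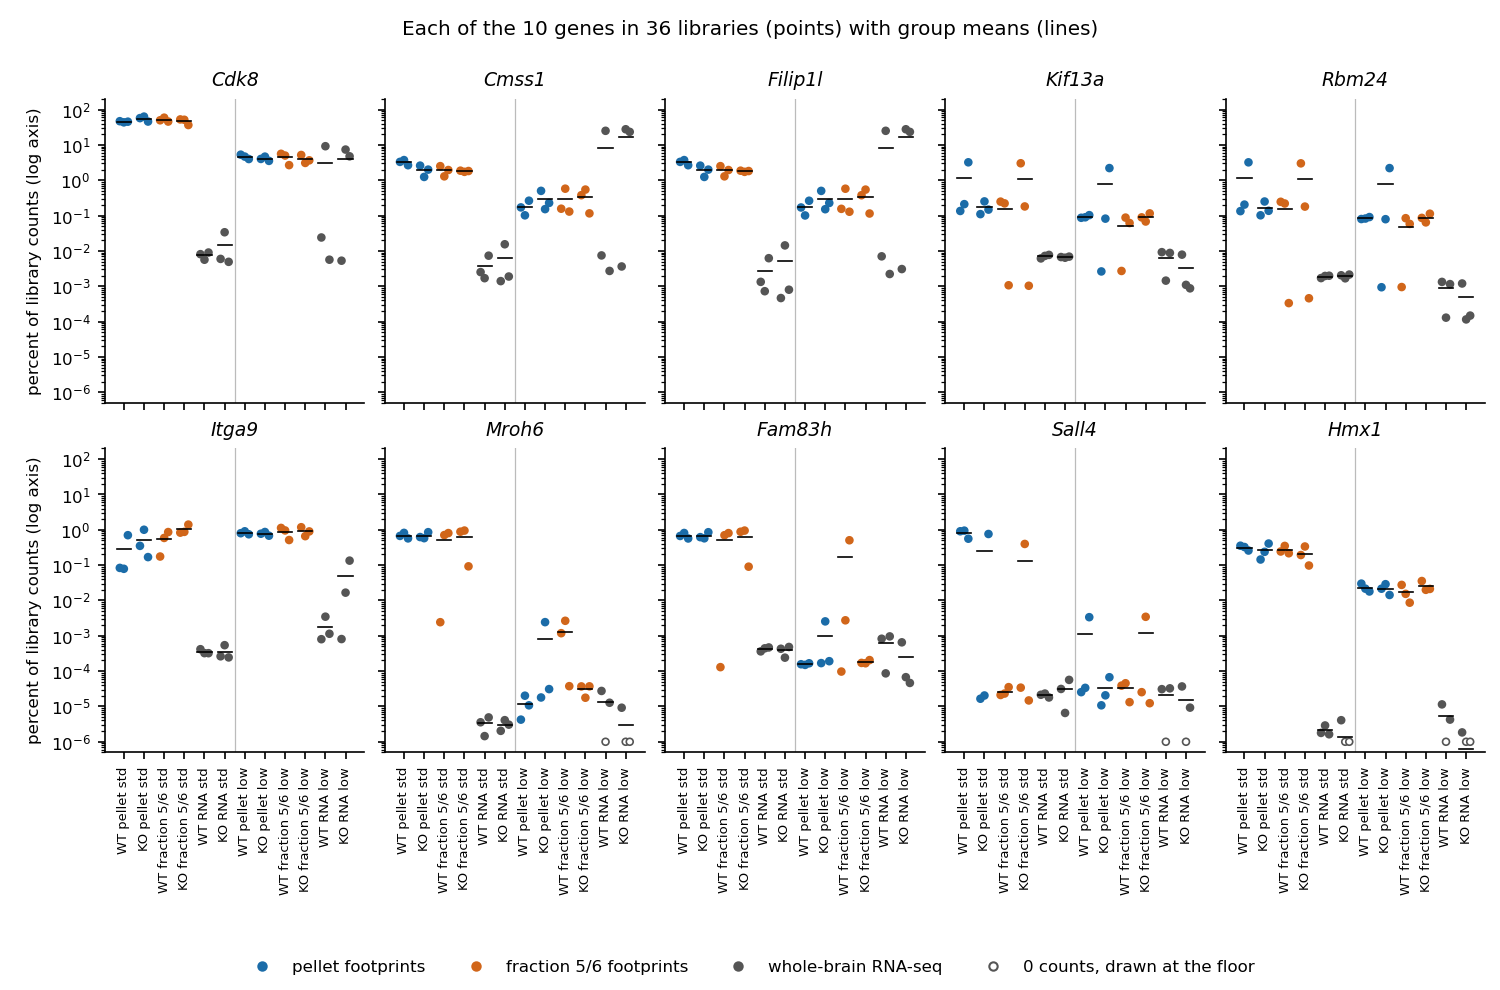
Percent of library counts in each of the 10 genes (log axis), with 1 panel per gene, 3 libraries per group and lines at the group means; blue points are pellet footprints, orange points fraction 5/6 footprints, grey points RNA-seq, and open circles libraries with 0 counts drawn at the floor of the axis. Cdk8 lies between 36.7% and 63.4% in the 12 standard footprint libraries, while Kif13a, Rbm24 and Sall4 jump between levels within a group.

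Compared per length, the order of the 10 genes changed. Whether the authors counted exons or whole genes is not stated. The nested genes described below had the order that counts over whole spans would give, so the counts can hold reads from introns. CPM were therefore divided by the kilobases of the gene's span. On this scale Cdk8 had a mean level of 6974 CPM per kb in the standard footprints and ranked 1 of 16587 genes with a known span. Mroh6 had 1359 and ranked 2, Rbm24 had 508 and ranked 7, and Fam83h had 473 and ranked 8. The levels of Rbm24 and Fam83h did not differ beyond their spread. Hmx1 (248), Sall4 (152), Filip1l (101), Cmss1 (73.2), Kif13a (35.9) and Itga9 (20.2) followed at ranks from 13 to 177, and the median gene had 0.146 CPM per kb. Among low nuclease footprints the ranks were 5 for Cdk8, 28 for Rbm24 and 288 for Itga9, but 5413 for Mroh6 and 9503 for Sall4. The rank of Rbm24 was 146 there without FMR1 KO pellet replicate 3, that of Mroh6 6779 without WT fraction 5/6 replicate 2 and that of Sall4 11049 without FMR1 KO fraction 5/6 replicate 2. In standard RNA-seq Cdk8 ranked 5486 (7166 without FMR1 KO replicate 2), Mroh6 15914 and Hmx1 16370.

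Genes outside the list with high mean shares over the 24 footprint libraries differed in the preparation that carried them. Zfp740 and Csad had 0.530% each, with 1.06% in the low nuclease footprints and 0.000808% and 0.000837% in the standard ones. Pou3f2 (0.268%) had the reverse order, 0.00453% with low nuclease and 0.531% in the standard preparation. Of genes that were also abundant in standard RNA-seq, Tubb5 (a tubulin), Actb (actin) and Map1b (a microtubule-associated protein) had 0.507%, 0.449% and 0.416%. Atf2 (0.411%), Galnt2l (0.406%) and Fgfr2 (0.325%) came next. In the standard footprints alone the 10 genes took ranks 1 to 8, 15 and 19.

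In several cases pairs of genes held almost the same counts, library by library. Over the 24 footprint libraries, the smaller count of Cmss1 and Filip1l summed to 99.9% of the larger, and in the 12 standard libraries they differed by 78 to 217 counts while holding 123747 to 1335315. Cmss1 was the larger in all of them. These genes overlap on opposite strands. Among 997 pairs of genes in which 1 lies inside the span of the other, the outer gene had at least as many counts as the inner in all 36 libraries for 996 pairs, including all 393 pairs on opposite strands. Reads from the 2 strands of an overlap could thus not be told apart in this table, and the counts of Cmss1 and Filip1l cannot be assigned to one or the other.

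Kif13a and Rbm24 do not overlap. They lie 318 kb apart on chromosome 13 on opposite strands, with 3 genes of the table between them, yet their smaller counts summed to 98.8% of the larger over the 24 footprint libraries. In the WT pellet replicate 3 Kif13a had 708311 counts and Rbm24 707154, and in FMR1 KO fraction 5/6 replicate 1 they had 624221 and 620383. In the 2 standard libraries where Kif13a was low, the counts were 243 and 76 in WT fraction 5/6 replicate 3 and 70 and 31 in FMR1 KO fraction 5/6 replicate 3. The difference, Kif13a minus Rbm24, stayed between 39 and 4523 counts in all 24 libraries, while Kif13a itself ran from 70 to 858813. Of the genes between them, the one with the most counts was Nup153, a nuclear pore gene, with 38029 over the same 24 libraries. In standard RNA-seq the smaller count summed to 28.1% of the larger.

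Mroh6 and Fam83h lie 112 kb apart on the same strand of chromosome 15 with 9 genes between them, of which Eef1d, a translation elongation factor gene, had the most counts (43041 over the 24 libraries). In the standard footprints their common share was 99.5%, and in the low nuclease footprints it was 0.859%. That low value rests on WT fraction 5/6 replicate 3, where only Fam83h was high. In standard RNA-seq it was 0.762%.

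Hmx1 had a partner outside the list. Adra2c, the gene of the alpha-2C adrenergic receptor (chr5:35278319-35281763), ends 107 kb before Hmx1 with no gene of the table between them. Their common share was 93.5% in the standard and 98.5% in the low nuclease footprints. The exception was WT pellet replicate 1 of the standard preparation, with 142349 counts of Hmx1 and 194979 of Adra2c, and in each of the other 11 standard libraries the smaller count was at least 95.4% of the larger. In standard RNA-seq Adra2c had 8559 counts and Hmx1 14.

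**Figure D3:**
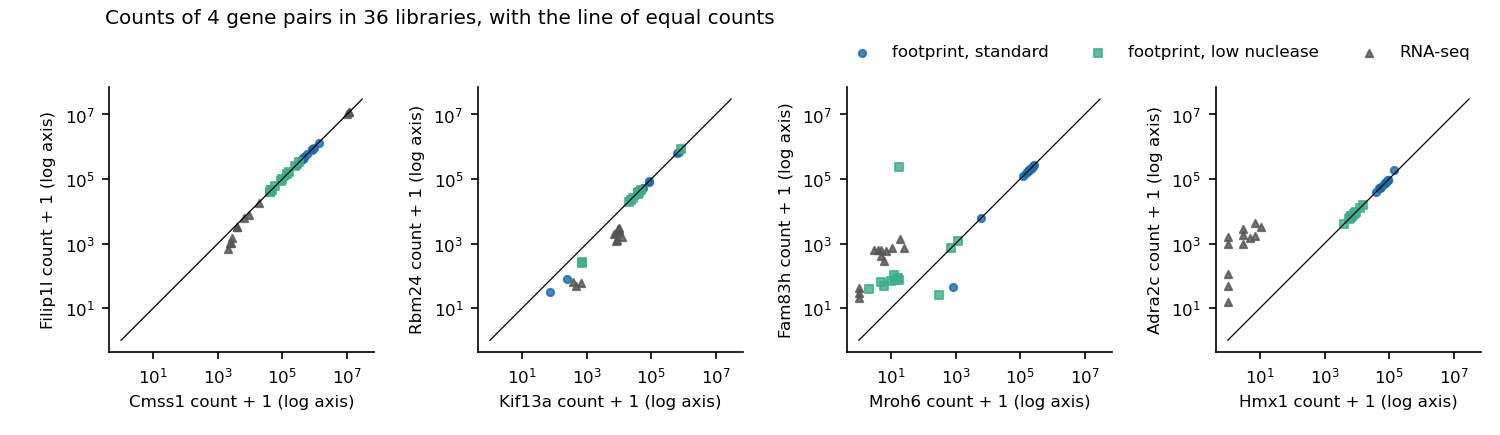
Counts of 4 gene pairs against each other in all 36 libraries (count + 1, log axes), with the line of equal counts; circles are standard footprints, squares low nuclease footprints and triangles RNA-seq, and points on the line are libraries in which the 2 genes hold the same number of counts. Cmss1 with Filip1l and Kif13a with Rbm24 follow the line wherever footprint counts are high, and the RNA-seq libraries of Hmx1 with Adra2c lie far from it.

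Such agreement was rare among neighbours. Of 64733 pairs of genes that do not overlap, lie within 500 kb of each other and have a mean of at least 100 counts over the footprint libraries, 780 (1.20%) had a common share of at least 85%, and 13 (0.0201%) had at least 98%. Of the 780, 3 involve a listed gene, the pairs described above.

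The question of genotype was asked within each fraction. In the pellet, none of the 10 genes passed the test between FMR1 KO and WT (edgeR, quasi-likelihood F test, p-values adjusted by the method of Benjamini and Hochberg over every gene tested), beside 2 of all 13370 genes, which is 0.015%. At an unadjusted p under 0.05 there were 709 genes, none of them listed, and DESeq2 called 66 genes, none of them among the 8 listed genes to which it gave an adjusted p. Cdk8 had a log2 fold change of 0.78 (SE 2.73, adjusted p = 1 by edgeR), and its error depended on the tool, since DESeq2 gave 0.79 with an SE of 0.344 (adjusted p = 0.775). Sall4 had -1.80 (SE 2.80), Kif13a -2.32 (SE 1.38), Itga9 1.48 (SE 1.28) and Cmss1 -0.38 (SE 0.590). The value of Kif13a turned to 0.64 without WT pellet replicate 3, its high library. That of Itga9 turned to -0.10 without FMR1 KO pellet replicate 2 and was 3.44 without WT pellet replicate 3. Such errors are wide and do not show that the genotypes are alike. Sall4 turned on FMR1 KO pellet replicate 3, the only high FMR1 KO library: without it the log2 fold change was -14.71 (SE 0.794, adjusted p = 0.0342 by edgeR). That value follows from leaving out the high library, since Sall4 then passed the filter on low counts only through WT, and nothing is read from it. Scaled by library size alone, Kif13a and Rbm24 were called (-2.80, adjusted p = 0.00575, and -2.86, adjusted p = 0.00441, by edgeR), where 287 genes in all were called and the median of all genes moved to -0.30.

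Cmss1 and Filip1l, which share their counts, were the only listed genes whose shares did not overlap between the genotypes in the pellet, all FMR1 KO libraries lying below all WT libraries. Of all genes tested, 5.5% did not overlap. After scaling by TMM the adjusted p was 0.992 for both.

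In fraction 5/6, 9 listed genes could be tested and none passed, as for all 13075 genes (0% called, 590 at an unadjusted p under 0.05, 80 called by DESeq2 and none of these listed). Sall4 did not pass the filter on low counts there. No listed gene had genotype groups that did not overlap, against 3.72% of all genes. The largest estimates, 2.56 for Kif13a (SE 2.60) and for Rbm24 (SE 2.77), rest on FMR1 KO replicate 1, without which Kif13a had -1.15. Without WT replicate 3, whose Fmr1 goes against its label, 0 of 9 listed genes and 4 genes in all were called. The low nuclease libraries gave the same answer, with 0 of 9 listed genes called in the pellet (0.0197% of all genes) and 0 of 10 in fraction 5/6 (0.0445%).

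Fold changes between the fractions, called enrichment when the pellet is higher, were tested within each genotype. In WT, 1 of 10 listed genes passed, beside 3 of all 13076 genes (0.0229%, and 0.0153% in the direction of the pellet). This was Sall4, with 692512 counts in the pellet and 20 in fraction 5/6. Its log2 fold change was 14.66 (SE 0.765, adjusted p = 0.0117 by edgeR). Sall4 passed the filter on low counts only through the pellet, the group in which it was high, so it had to differ once tested, and the call describes these 6 libraries without adding support. By edgeR the call was lost without WT fraction 5/6 replicate 1 (adjusted p = 0.0742), without WT pellet replicate 1 (0.0666) and without WT pellet replicate 3 (0.0543), while the fold change stayed between 14.40 and 14.90. When the fraction 5/6 library labelled WT replicate 3 was left out the adjusted p was 0.00625, and 1273 genes in all were called. In that setting as in the full one, Sall4 was the only listed gene called.

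Sall4 was not high in every pellet. In FMR1 KO it was high in 1 of 3 pellet libraries and 1 of 3 fraction 5/6 libraries, with mean shares of 0.253% and 0.132%. Among low nuclease WT libraries the log2 fold change was 5.27 (SE 2.04, adjusted p = 0.106 by edgeR), which rests on pellet replicate 3. The difference between the preparations in the pellet to fraction 5/6 change was 7.58 on the log2 scale (edgeR, SE 3.07, unadjusted p = 0.0235, adjusted p = 0.504), so it did not pass.

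The other listed genes of the WT fractions had log2 fold changes between -1.12 (Itga9, SE 1.16) and 2.63 (Rbm24, SE 2.17). Both rest on WT pellet replicate 3, without which Itga9 had -3.09 and Rbm24 -0.36, and with 1 library left out at a time they ran from -3.09 to -0.63 and from -0.36 to 3.48. Shares that did not overlap were found for Cmss1, Filip1l and Sall4, against 4.47% of all genes. In FMR1 KO, 0 of 9 listed genes passed, although 1515 of 13248 genes (11.4%) did in this comparison. The latter count fell to between 491 and 1412 with 1 library left out at a time, being 491 without fraction 5/6 replicate 1, 801 without fraction 5/6 replicate 3, 545 without pellet replicate 1 and 613 without pellet replicate 3, and to 235 with library size alone. Cdk8 had 0.79 (SE 4.55) there and Kif13a -2.32 (SE 2.11), which turned to 1.42 without fraction 5/6 replicate 1, and no listed gene had fractions that did not overlap, against 18.2% of all genes. In low nuclease WT libraries the fitted log2 fold change of Mroh6 was -6.51 (SE 1.63, adjusted p = 0.0366 by edgeR), beside 8.56% of all genes called lower in this comparison (22.8% in either direction). Its counts there were 1, 9 and 4 in the pellet and 305, 1172 and 17 in fraction 5/6, so it too was tested only through the group in which it was higher, and the value is a description. No listed gene passed in the low nuclease FMR1 KO fractions, where 20.5% of genes did.

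**Figure D4:**
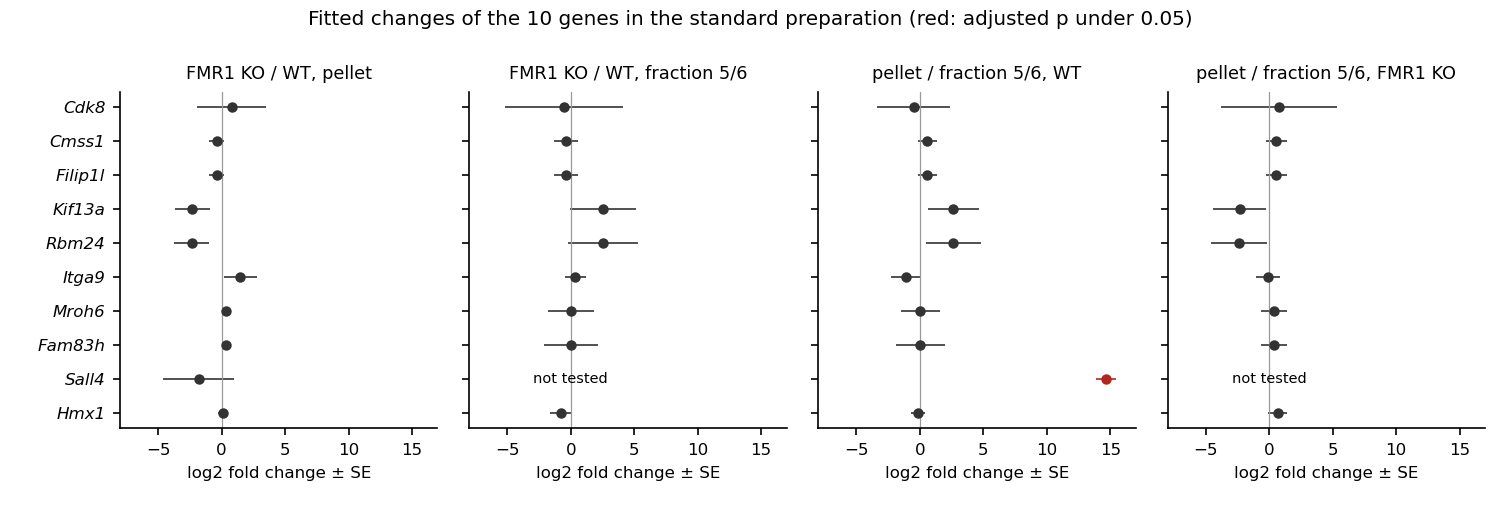
Log2 fold changes of the 10 genes from edgeR (points) with their SE (bars) in the 4 genotype and fraction comparisons of the standard preparation, each fitted on 3 libraries against 3; red marks an adjusted p under 0.05. Sall4 between the WT fractions, at 14.66, is the only red point, and the bars of Cdk8 are among the widest. The SE was derived from the fold change and the F statistic of the test.

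For Cdk8 the share itself was also compared by exact permutation tests in 8 comparisons, where 3 libraries against 3 allow no two-sided p below 0.1. By exact permutation, FMR1 KO minus WT was 10.2 percentage points in the standard pellet (p = 0.2) and -4.67 in standard fraction 5/6 (p = 0.6). The latter was -7.54 points without WT replicate 3. The exact permutation p of the other comparisons was 0.2 to 1, and after adjustment over the 8 all were 0.8 to 1. The groups overlapped in each of them.

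Between the preparations, the listed genes were chosen in part on the standard values, so the counts of calls are printed without being read as a result. In the pellet, 7 of 10 were called higher in the standard preparation, beside 24.1% of all genes called higher (53.7% in either direction). For fraction 5/6 it was 7 of 10, beside 19.7% (42.7% in either direction). Kif13a and Rbm24 were not called in either fraction, Itga9 not in the pellet and Sall4 not in fraction 5/6. Without replicate 2 of each group, 4 of 10 were called in fraction 5/6, with Cdk8, Itga9 and Fam83h lost. Over all genes 1453 were called in that setting, against 6585 with all replicates. The call of Cdk8 was lost in fraction 5/6 when any of the 3 replicates was left out (adjusted p = 0.0646 to 0.0971 by edgeR) and in the pellet without replicate 3 (0.115), while its log2 fold change stayed at 4.81 to 5.40 in fraction 5/6 and 4.96 to 5.14 in the pellet. The log2 fold change of Cdk8 was 5.10 in the pellet (SE 1.14) and 5.19 in fraction 5/6 (SE 1.22), that of Hmx1 5.18 (SE 0.323) and 5.19 (SE 0.602), and that of Mroh6 14.19 (SE 1.56) and 13.24 (SE 1.92). Scaling by library size alone moved the median of all genes by -1.47 in each fraction, and gave 3.52 and 3.55 for Cdk8. Itga9 changed direction with the scaling, from 1.29 (SE 0.446, adjusted p = 0.0393 by edgeR) to -0.25 in fraction 5/6 and from 0.66 to -1.06 in the pellet. With 1 replicate number left out of every group, the TMM-scaled pellet value of Itga9 ran from -0.14 to 1.03. No listed gene passed the test of whether the pellet to fraction 5/6 change differed between the preparations (0 of 10, beside 0.0254% of all genes).

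In whole-brain RNA-seq of the standard preparation, 8 listed genes could be tested and none passed between the genotypes (12 of all 16334 genes did, 0.0735%), nor did any have groups that did not overlap (8.01% of all genes). Mroh6 and Hmx1 had too few counts. Cdk8 had a log2 fold change of 1.04 (SE 0.647), which rests on FMR1 KO replicate 2. That library also had the highest shares of Cmss1 (0.0155%, against 0.0014% to 0.00736% in the other 5) and of Lars2, a mitochondrial leucyl-tRNA synthetase gene (0.0433%, against 0.00124% to 0.00362%). Kif13a and Rbm24 were even in RNA, at 0.00615% to 0.00774% and 0.00168% to 0.00215%, with log2 fold changes of -0.05 (SE 0.102) and 0.08 (SE 0.117).

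The low nuclease RNA-seq libraries fell apart into unlike libraries of the same group. FMR1 KO replicate 1 and WT replicates 1 and 3 had 0.0226%, 0.0508% and 0.0227% of their counts in the 10 genes, close to the standard RNA-seq. FMR1 KO replicates 2 and 3 and WT replicate 2 had 63.1%, 51.8% and 59.5%. In these 3 libraries Cmss1 took 27.8%, 23.5% and 25.2%, Filip1l the same to within 58 counts, and Cdk8 took 7.41%, 4.77% and 9.22%. Itga9 took 0.0166%, 0.134% and 0.00347%. The other 6 listed genes were not raised there, with Kif13a at 0.000874% to 0.00145% and Mroh6 and Hmx1 at 0 counts in each. The order was thus another than in the footprints: Cdk8 exceeded Cmss1 by 22.4 times in mean share in the standard footprints and was 0.203 to 0.367 times Cmss1 in these libraries.

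Other measures moved with those 3 libraries. They held 41586791 to 46349715 counts, against 87493056 to 147216378 in the other RNA-seq libraries. Of the genes with a count in them, 87.9% to 89.8% had an even count, against 60.9% to 67.3% in the other RNA-seq libraries and 48.2% to 50.6% in the footprints. The summed level of 5 neuron markers was 1072 to 1865 CPM without the listed genes, against 4348 to 5541 in the other RNA-seq libraries, and the oligodendrocyte lineage markers were at 48.1 to 90.9 CPM against 372 to 750. The astrocyte markers overlapped, at 87.7 to 210.0 CPM against 205.5 to 563 CPM. Lars2, Jarid2, Gphn and Camk1d together held 10.7% to 23.6% of their counts, against 0.0281% to 0.0936% in the other RNA-seq libraries. Fmr1 had 4.82 and 5.19 CPM in the FMR1 KO libraries and 27.5 CPM in the WT library, as their labels ask. The part of any of these measures in the shares was not tested. With all 6 low nuclease RNA-seq libraries, no gene was called between the genotypes (0 of 8 listed, 344 of 15761 genes at an unadjusted p under 0.05).

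The deposited footprint peaks gave a view of where reads lay. Peaks were called by the authors on transcript coverage in each of the 12 standard libraries, and each has a height in reads. Of the 278002 peaks, 21 lay on Cmss1, in 8 libraries and with heights of at most 16, and 1 of height 52 lay on Mroh6. The other 8 listed genes had no peak. In the whole table, 6228 of 16614 genes (37.5%) had at least 1 peak, against 2 of the 10. The tubulin gene Tubb5 had 54 peaks in 12 libraries with heights up to 4638, Actb had 70 up to 3950, and Pou3f2 179 up to 60. Having few or no peaks was not particular to the listed genes, since Atf2, with 0.294% of the standard footprint counts, and Fgfr2, with 0.0844%, had none and Galnt2l, with 0.238%, had 1. Cdk8 thus had 2480856 to 21745926 counts in each standard library and no transcript peak in any. No peak of a listed gene was shared, within 6 nt, by all 6 libraries of a fraction. The rule by which a transcript entered the peak calling is not given in the sources used here, so a gene without peaks need not lack reads on its transcript.

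The spans of the 10 genes were compared with ribosomal RNA by BLAST. The queries were an rDNA copy of 5817 nt, a 28S-related fragment of 420 nt and both mitochondrial ribosomal RNAs, and full 28S and 5.8S were not searched here. None of the 10 had a match of at least 30 nt at 90% identity, which 70 of 16587 genes (0.422%) had. The 10 were searched with a shorter seed word and a looser E-value limit than all genes, so these counts come from unlike searches. The best match to Cdk8 was 31 nt at 87.1% identity, to mitochondrial mt-Rnr2. At 20 nt and 85% identity all 10 had a match, which at that length says little.

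The genes whose footprint levels were most like those of a listed gene were found by the correlation of log2 CPM over the 24 footprint libraries among 11286 genes. The libraries share their preparation and much of the spread lies between the preparations, so the values are descriptions. Cdk8 was most like Pou3f2, a neural POU transcription factor gene (r = 0.989), then Zfp800 (0.984), Adra2c (0.979), Trpm2 (0.975) and Harbi1 (0.968). Within the 12 standard libraries r with Pou3f2 was 0.641 and within the 12 low nuclease libraries 0.150. Hmx1 was most like its neighbour Adra2c (0.999, and 0.985 and 1.00 within the preparations). Fam83h was most like Plec, the gene of the cytoskeletal linker plectin (0.906, 0.989 in the standard and -0.28 in the low nuclease libraries), Itga9 like Atf2 (0.776), and Kif13a and Rbm24 like Xab2 (0.682 and 0.695). Among the listed genes, Cdk8 and Hmx1 had r = 0.981. Cdk8 and Cmss1 had r = 0.943 over all 24 libraries and 0.0877 within the standard ones.

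The partners of Cdk8 did not share its footprint level. The Mediator kinase module joins Cdk8 or its paralog Cdk19 with cyclin C (Ccnc), Med12 or Med12l and Med13 or Med13l. The 6 other genes of the module had 0.00106% to 0.00264% of the standard footprint counts and 0.00286% to 0.0174% of the standard RNA-seq counts, so each had a smaller share of all counts in footprints than in RNA, while Cdk8 had a larger one. With the 10 listed genes left out of the totals this still held for 5 of the 6, and Med12 turned, with 0.00396% in footprints and 0.00286% in RNA. Of the 7 genes in the standard preparation, none was called between the genotypes in either fraction or in RNA, and none between the fractions in WT. In FMR1 KO, 2 of 7 were called higher in the pellet (Med12 at 2.38 and Med12l at 0.93), beside 9.09% of all genes. The median log2 fold change of the module there was 0.48, against -0.04 over all genes tested. Between the low nuclease fractions, Med12 was called higher in the WT pellet (2.55; 1 of 7, beside 14.3% of all genes called higher) and Med12 and Med12l in the FMR1 KO pellet (2.02 and 0.75; 2 of 7, beside 8.79%). Between the preparations, 4 of the 6 genes other than Cdk8 were called in the pellet, 2 of them higher, beside 53.7% of all genes called and 24.1% higher. In fraction 5/6 it was 2 of 6, 1 of them higher, beside 42.7% and 19.7%.

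Of 26 paralogs and partners of the other listed genes, 23 were in the table. The highest were Hmx2, a homeobox gene related to Hmx1, with 0.0280% of the standard footprint counts, and Mroh1, with 0.0107%. The mean of Mroh1 rests on WT fraction 5/6 replicate 1 (0.0983%), without which it was 0.00268%, below Sall2 at 0.00594%. Hmx2 was uneven in the way Sall4 was. It was at most 4.61e-05% in the WT pellet libraries and between 0.0205% and 0.0303% in WT fraction 5/6, a log2 fold change of -10.18 (adjusted p = 0.0491 by edgeR, lower in 3 of 3 pellet libraries), and it was the only 1 of 11 tested that passed (0.00765% of all genes called lower). Like Sall4 it was tested only through the group in which it was high. The FMR1 KO shares of Hmx2 were 0.0636%, 5.83e-06% and 0.0767% in the pellet and 0.0368%, 0.0854% and 0% in fraction 5/6. Low values in every pellet library were thus seen in WT only. In the FMR1 KO fractions 2 of 11 passed, both higher in the pellet (Mroh1 at 1.25 and Kif13b, a kinesin related to Kif13a, at 1.5), beside 9.09% of all genes called higher. Between the low nuclease fractions 5 of 21 were called in WT, all higher in the pellet (14.3% of all genes), and 4 of 20 in FMR1 KO, 3 of them higher (20.5% called). Between the preparations it was 9 of 19 in the pellet and 9 of 20 in fraction 5/6, beside 53.7% and 42.7% of all genes. None passed between the genotypes, with 15 tested in the pellet, 11 in fraction 5/6 and 21 in RNA.

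A list of 20 genes that overlap or resemble structural RNA had 4 members in the table. In the standard footprints Jarid2, a Polycomb-associated gene, had a mean of 0.213% that rests on FMR1 KO fraction 5/6 replicate 2 (2.33%, against at most 0.05% in the other 11 libraries). Camk1d had 0.0879%, Lars2 0.0347% and Gphn 0.0113%. None of the 4 was called between genotypes or fractions. Between the preparations 2 of 4 were called higher in the standard pellet, beside 24.1% of all genes (median log2 fold change 0.92, against -0.04 over all genes), and 4 of 4 in fraction 5/6, beside 19.7% (2.50, against -0.03). These calls hold after scaling by TMM. As a share of all counts, Gphn was lower in standard fraction 5/6 (0.0087% to 0.0170%) than in low nuclease fraction 5/6 (0.0192% to 0.0221%). The shares of Lars2, Jarid2 and Camk1d overlapped between the preparations there.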

How the data were processed

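The authors trimmed reads with Cutadapt 2.10, used Bowtie2 2.3.5 to discard reads of ribosomal and other non-coding RNA, aligned to GRCm38 with STAR 2.7.8a, removed duplicates marked by Picard with SAMtools 1.19.2, and deposited raw counts per gene made with featureCounts 2.2.0, whose options are not given in the sources used here. Peak heights are a signal that the authors deposited: the coverage at maxima called in each standard footprint library on transcripts, not normalized.

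From the counts, protein-coding genes and 27 genes without an annotated biotype were kept (26 others were left out), filtered by filterByExpr, scaled by TMM and tested with edgeR 4.0.16 in R 4.3.3 (quasi-likelihood F test, Benjamini-Hochberg adjustment over all genes tested, threshold 0.05), on the libraries of the groups compared. Fits over both preparations used 1 coefficient per group and averaged the contrast over genotype. The SE of an edgeR log2 fold change was derived as its absolute value divided by the square root of the F statistic. DESeq2 reports an SE of its own, so the SEs from these tools are not like measures. The edgeR code was also run on simulated counts, for some of the comparisons. Gene positions and biotypes came from GENCODE annotation of GRCm38, which matched 16587 of the 16614 genes. Shares are percent of all counts of a library. CPM for markers, Fmr1 and correlations used library sizes without the 10 genes, with a prior count of 2 before logs. Python 3.11.15, pandas 2.3.3, numpy 2.4.6, scipy 1.17.1, matplotlib 3.10.9 and BLAST 2.17.0 were used for the rest. Poisson intervals are exact, at 95%, and cover counting error only.

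The 10 genes, the gene lists and the tests were chosen with earlier results of these data known. All 10 genes are named in every comparison. Beside them, the rule named the 5 genes outside the list most correlated with Cdk8, the nearest gene to each other member that had at least 10 counts in all footprint libraries, the 10 most abundant genes outside the list, the most abundant of a list of genes resembling structural RNA, and Fmr1. Some genes that the rule selects are not reported here. Neighbouring genes with like counts, Hmx2 and single genes of the other lists were named after their values were seen. Alternatives were DESeq2 1.42.0, library size alone, no filter beyond 1 count, all biotypes, a replicate block, each replicate left out, the low nuclease libraries and, chosen after seeing the data, scaling without the 10 genes.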

Additional observations from a re-analysis of the deposited data

Results flagged for a closer look

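Low nuclease RNA-seq entered no main comparison, and 3 of its 6 libraries held a signal in the 10 listed genes that the other RNA-seq libraries did not. The summed share was 63.1% in FMR1 KO replicate 2, 51.8% in FMR1 KO replicate 3 and 59.5% in WT replicate 2. The other 3 libraries had 0.0226% to 0.0508%, and the standard RNA-seq libraries 0.0173% to 0.0726%. Both genotypes were among the high and among the low libraries. Groups of 3 libraries are too small for a test of single outlying libraries.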

How the results depend on the processing

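Of 859 values of the listed genes under another setting, 837 kept their direction and their side of the threshold or were uncalled in both, 13 lost a call, 7 gained one and 2 reversed; the cause was not tested. The reversals were Mroh6 between the WT fractions in the low nuclease libraries (-6.51) and Itga9 between the preparations in fraction 5/6 with library size alone (-0.25). Scaling without the 10 genes, chosen after seeing the data, changed no call of a listed gene. Library size alone called 2 listed genes between the genotypes in the pellet, and DESeq2 called Kif13a and Rbm24 between the preparations in fraction 5/6 (4.48 and 4.54), where 9 listed genes were called. In the pellet DESeq2 called 5 listed genes against 7, and it gave no adjusted p for Kif13a, Rbm24, Mroh6 and Fam83h. Between the preparations DESeq2 called 9067 of all 15328 genes in the pellet and 7384 of all 15417 in fraction 5/6. Counts over all genes moved more. In the pellet genotype comparison, DESeq2 called 66 and library size alone 287 genes. In fraction 5/6 these were 80 and 201, and 7 in the low nuclease libraries. Between the WT fractions they were 90 and 170, and 3559 with low nuclease. Between the FMR1 KO fractions library size alone gave 235 and low nuclease 3193. Between the preparations library size alone gave 14634 in the pellet and 14192 in fraction 5/6. The interaction gave 68 with DESeq2 and 2 with library size alone, and RNA-seq 24 with DESeq2 and 0 in the low nuclease libraries. Library size alone moved the median of all genes by -1.47 to 0.45. Looser matching to ribosomal RNA (20 nt, 85%) gave 10 listed genes, and the share of all genes was not counted at that setting.

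Replicate numbers were not used as pairs in the main fits. In the genotype and fraction comparisons of the standard footprints, deviations of same-numbered libraries correlated at -0.053 to 0.25. In none of these were all 3 over 0.1. Between the fractions all were positive (0.0040 to 0.25), so some pairing there is possible. The other comparisons were not examined for pairing. The replicate block left 0 listed genes between the WT fractions (Sall4, 14.67, adjusted p = 0.179 by edgeR). It also ended the call of Itga9 between the preparations in fraction 5/6 (adjusted p = 0.0705 by edgeR). Over all genes it gave 0 calls for genotype in the pellet and for the WT fractions and 662 for the FMR1 KO fractions.

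Libraries were left out 1 at a time, but for the preparations and the interaction 1 replicate number was left out of every group. Listed genes called then ran from 0 to 1 for genotype in the pellet, 0 to 1 for the WT fractions, 6 to 7 for the preparations in the pellet and 4 to 7 in fraction 5/6. All genes called ran from 1 to 8 and 0 to 11 for genotype in the pellet and fraction 5/6, 0 to 1273 and 491 to 1412 for the WT and FMR1 KO fractions, 5447 to 5700 and 1453 to 4430 for the preparations, 6 to 16 for the interaction and 9 to 15 for RNA-seq. A group of 2 libraries borrows its spread from the rest of the fit. The few counts of Mroh6, Hmx1 and Sall4 in standard RNA-seq (24, 14 and 206) limit the precision of their shares there.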
